A study of Ovis aries with 8 samples.

Results

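The genes described here carry fatty acids to the sites of oxidation, oxidise them in mitochondria and in peroxisomes, and make or use ketone bodies. They were taken from a list of 45 gene symbols, matched to the symbol column of the deposited table. Of the 45, 41 had a row among the 27057 rows of the table, and CD36, ACADM, ETFA and ETFB were not matched by symbol and are not analysed here. Of these 41, 40 had 4 or more libraries at an FPKM of 1 or above and were tested. FPKM is the number of fragments of a gene scaled by transcript length and by the mapped total of the library. ACAA2, the mitochondrial thiolase, is usually abundant in liver but was listed at 0 in all 8 libraries and was not tested. A listed 0 may be a failed estimate, so its level is not known from these values.

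The libraries came from cultured fetal sheep hepatocytes (Ovis aries), the parenchymal cells of the liver. One group was treated with metformin, an antidiabetic biguanide, for 24 h, and the other group was basal. The labels number 4 preparations, each giving 1 metformin and 1 basal library of polyadenylated RNA. The sources used here do not state the dose, the vehicle, the fetal age or how many animals a preparation came from. The p-values therefore set the difference between metformin and basal libraries against its spread over the 4 preparations, not over animals.

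Fatty acids that enter a hepatocyte are bound by FABP1 and activated to acyl-CoA by synthetases. Long-chain acyl-CoA then enters mitochondria through CPT1, a carnitine carrier and CPT2, and is shortened there in cycles of dehydrogenation, hydration, a second dehydrogenation and thiolysis. Very long, branched and bile acid side chains are shortened in peroxisomes, whose enzymes are imported from the cytosol by peroxins. Part of the acetyl-CoA becomes ketone bodies in the liver. A fetus lives mainly on glucose, lactate and amino acids from the placenta, and fat oxidation in liver becomes prominent after birth.

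The 8 libraries had summed FPKM of 1024543 to 1257764, and 12733 to 13293 genes reached an FPKM of 1, with no library standing apart on these measures. The depth in reads is unknown. The defining hepatocyte genes were present: none of 19 hepatocyte markers was listed at 0, and their summed FPKM was 15380 to 34747 with metformin and 26313 to 44943 in basal libraries. Of these 19 markers, 14 fell and 1 (APOB) rose with metformin, or 78.9%, against 43.9% of all genes tested (24.1% lower and 19.8% higher). Of 6 tested hepatoblast markers 4 fell and 0 rose. AHSG, among the 4, had values in both groups only for preparations 3 and 4. Markers of other liver cells were also present, and none of those with a row in the 5 lists that follow was at 0 in all libraries. The sums of 14 stellate cell and fibroblast markers were 5612 to 6793 FPKM with metformin and 5139 to 7621 FPKM in basal libraries, and 10 of the 14 fell and 1 rose, or 78.6%. The sums of 16 endothelial markers were 134 to 453 FPKM with metformin and 194 to 658 FPKM in basal libraries, and of the 15 tested 9 fell and 0 rose. The sums of 15 macrophage markers were 1790 to 3137 FPKM with metformin and 1656 to 3564 FPKM in basal libraries, and 7 fell and 1 rose, or 53.3%, nearer to the share of all genes. The sums of 12 erythroid markers were 92.3 to 264.7 FPKM with metformin and 79.6 to 204.1 FPKM in basal libraries, and of the 10 tested 1 fell and 1 rose. The sums of 10 cholangiocyte markers were 2456 to 5218 FPKM with metformin and 2011 to 9355 FPKM in basal libraries, and of the 9 tested 3 fell and 3 rose. The part of hepatocyte and other cell markers in the results below was not tested. In RNA from a mixed culture, fewer cells of a type and less RNA per cell cannot be told apart.

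With metformin, most genes of fatty acid oxidation fell, in both compartments. Of the 7 tested genes of fatty acid uptake and activation 3 rose and 2 fell, and 1 ketone body gene rose. Of the 40 genes tested, 21 fell and 5 rose at an adjusted p under 0.05 (limma, Benjamini-Hochberg adjustment over all 13141 genes tested), which is 65.0% of them. Over all genes tested 43.9% changed, 24.1% lower and 19.8% higher. The median log2 change of the 40 was -0.39, against -0.04 for all genes tested. Among tested markers it was -0.88 for hepatocytes, -0.77 for hepatoblasts and -0.66 for stellate cells and fibroblasts. For endothelial, macrophage, erythroid and cholangiocyte markers it was -0.44, -0.29, 0.25 and 0.10. A fall in the median was thus not particular to these 40 genes. In all 26 changed genes the 4 preparations shared 1 direction, and a paired test tends to call such genes. With metformin 27 of the 40 were lower in all 4 preparations and 6 were higher, against 32.2% and 28.0% of all genes tested. In 14 genes every metformin library lay below every basal library, and in 3 every metformin library lay above. Over all genes tested these shares were 12.6% and 13.3%. Falls of at least 2-fold past the threshold were seen in 9 of the 40 (5.48% of all genes tested) and a rise of that size in 1 (4.42%). The groups were compared within preparations. Without the pairing 14 of the 40 passed the threshold, 11 lower and 3 higher. Over all 13141 genes tested, 1246 were then lower and 1272 higher, far fewer than with the pairing.

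**Figure D1:**
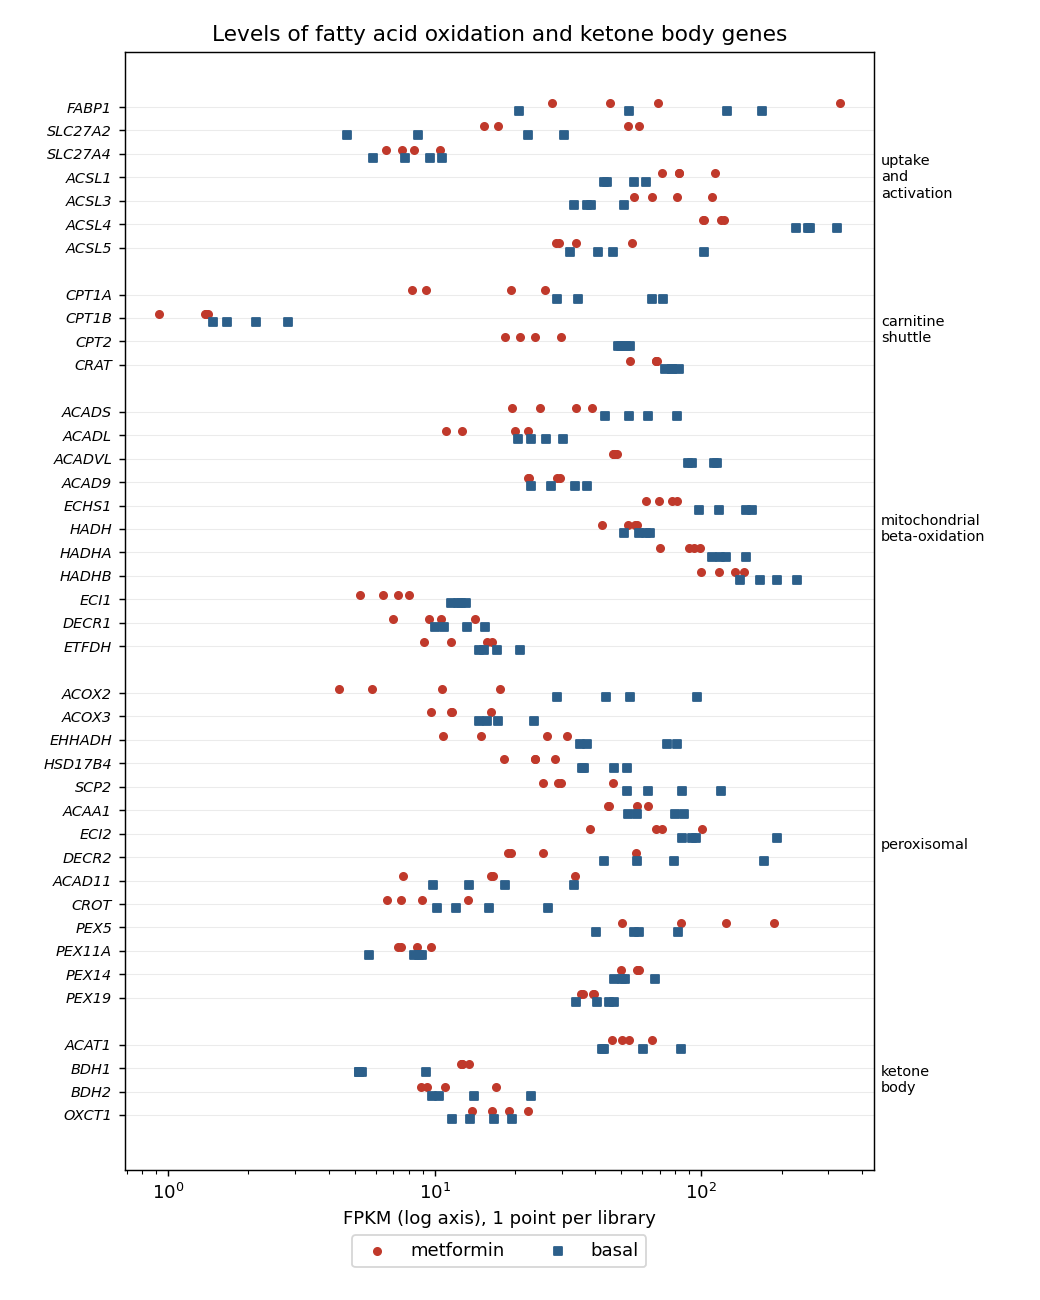
FPKM of the 40 tested genes on a log axis, 1 point per library, with metformin libraries as red circles above basal libraries as blue squares in each row, grouped by role. ACOX2, EHHADH, CPT1A, CPT2, ACADVL and ACSL4 show 2 separate sets of points, with metformin on the left.

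By role, the carnitine shuttle had 2 of 4 genes fall and 0 rise, mitochondrial beta-oxidation 8 of 11 fall and 0 rise, and the 10 peroxisomal enzymes 9 fall and 0 rise. Of the 4 peroxins 1 rose and 0 fell, of the 4 ketone body genes 1 rose and 0 fell, and of the 7 tested genes of uptake and activation 3 rose and 2 fell. Over all genes tested 43.9% changed, 24.1% lower and 19.8% higher. The share of the carnitine shuttle that changed, 50.0%, was near that of all genes. The median log2 change was -0.76 for the carnitine shuttle, -0.54 for mitochondrial beta-oxidation and -0.78 for the peroxisomal enzymes. It was 0.06 for the peroxins, 0.08 for the ketone body genes and 0.07 for uptake and activation. The peroxisomal enzymes had medians of -1.06, -0.94, -0.48 and -0.85 in preparations 1 to 4, and mitochondrial beta-oxidation had -0.38, -0.36, -0.47 and -0.81. Both medians were below 0 in every preparation, and those of all genes tested were -0.07, 0.07, 0.00 and -0.13. The median of the 19 hepatocyte markers, -0.88, was lower than that of any of these roles. A difference between the roles, or between roles and markers, was not tested.

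**Figure D2:**
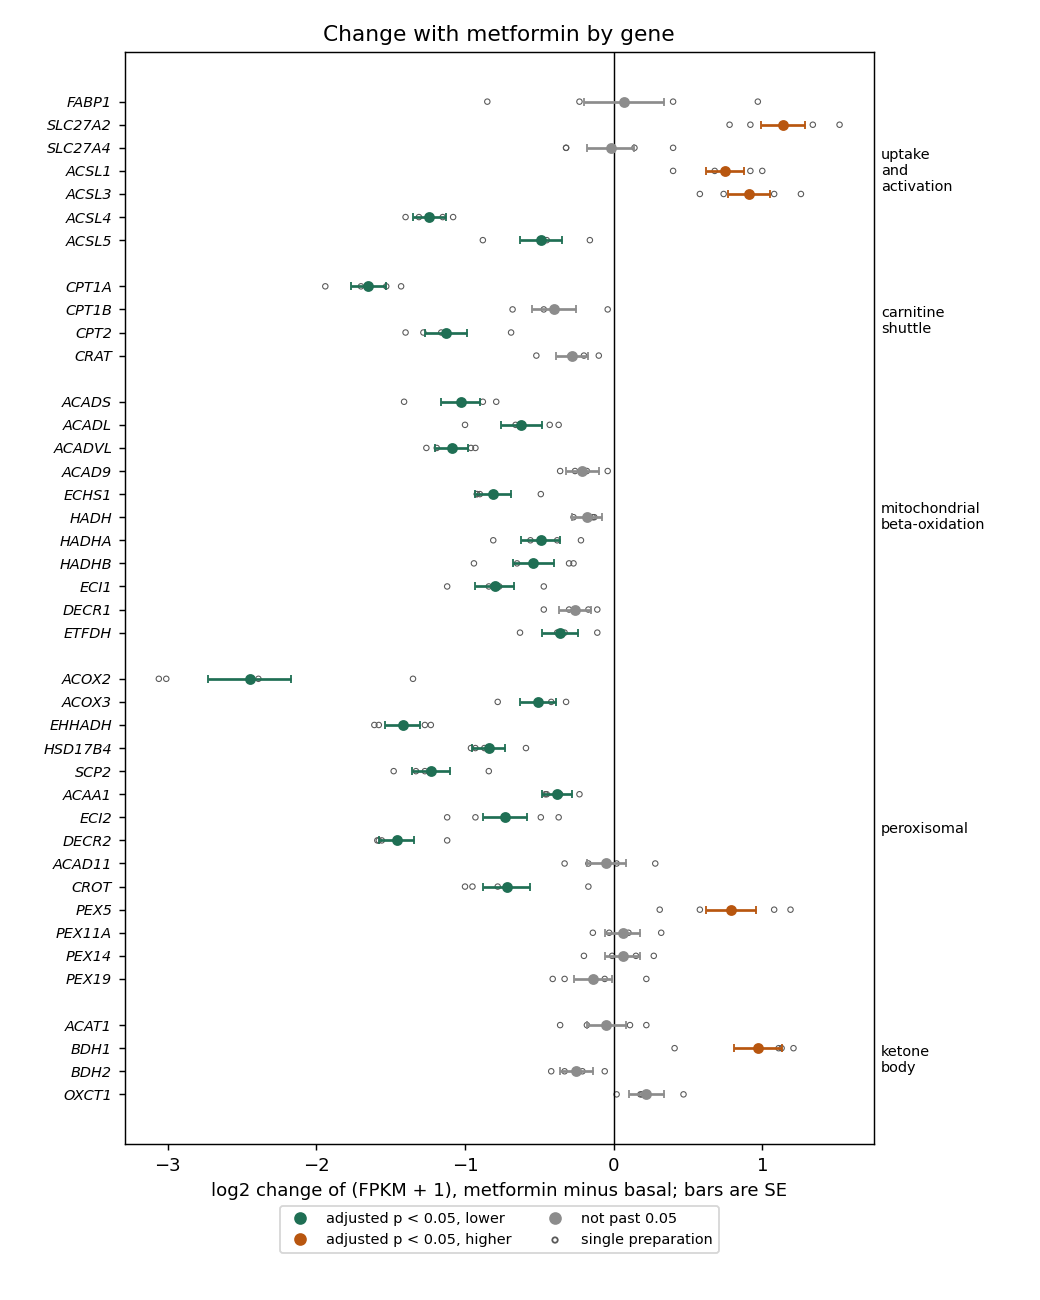
Log2 change of (FPKM + 1), metformin minus basal, of the 40 tested genes by role. Filled points with SE bars are the paired fit, coloured by the test, and open circles are single preparations. ACOX2 lies farthest left at -2.45 and SLC27A2 farthest right at 1.14.

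Among the genes that take up and activate fatty acids, the 4 long-chain acyl-CoA synthetases moved in opposite directions. Values are given below in the order of preparations 1 to 4. ACSL4, which prefers arachidonic acid, had 101, 103, 121 and 118 FPKM with metformin, against 226, 256, 323 and 251 FPKM in basal cells. Every metformin library lay below every basal one, and the log2 change was -1.24 ± 0.11 (SE, adjusted p = 0.000786). ACSL1, the main synthetase of liver and a known PPARA target, had 113, 82.5, 71.3 and 82.6 FPKM with metformin, against 55.7, 43.2, 44.2 and 62.1 FPKM in basal cells. ACSL3, found on lipid droplets and the endoplasmic reticulum, had 109.8, 80.99, 55.9 and 65.2 FPKM with metformin, against 51.4, 33.3, 37.1 and 38.7 FPKM in basal cells. For both genes all metformin libraries were above all basal ones, with log2 changes of 0.75 ± 0.13 (SE, adjusted p = 0.00483) for ACSL1 and 0.91 ± 0.14 (SE, adjusted p = 0.00328) for ACSL3. ACSL5, a synthetase of mitochondria and the endoplasmic reticulum, had 55.1, 28.6, 33.9 and 29.1 FPKM with metformin, against 102, 32.2, 46.5 and 41.1 FPKM in basal cells. It was lower with metformin in each preparation although the groups overlapped, and it fell by 0.49 on the log2 scale (adjusted p = 0.0248). Adjusted p was 0.111 without preparation 1, 0.0567 without preparation 3 and 0.0693 without preparation 4, so the call ended in each case.

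Because FPKM is scaled by transcript length, the 4 synthetases can be set against each other. ACSL4 made up 26.7, 34.8, 42.9 and 40.05% of their summed FPKM with metformin, against 51.9, 70.2, 71.6 and 63.9% in basal cells. The share was lower with metformin in each preparation. ACSL1 made up 29.8, 27.99, 25.3 and 27.98% with metformin, against 12.8, 11.9, 9.82 and 15.8% in basal cells, and ACSL3 made up 28.97, 27.5, 19.8 and 22.1% with metformin, against 11.8, 9.15, 8.24 and 9.86% in basal cells. Both shares were higher with metformin in every preparation, and neither overlapped between the groups. The summed FPKM of the 4 genes was 379, 295, 282 and 295 with metformin, against 436, 364, 450.5 and 393 in basal cells. ACSL4 thus had the highest level of the 4 in all basal libraries, and in metformin preparation 1 ACSL1 and ACSL3 stood above it.

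**Figure D3:**
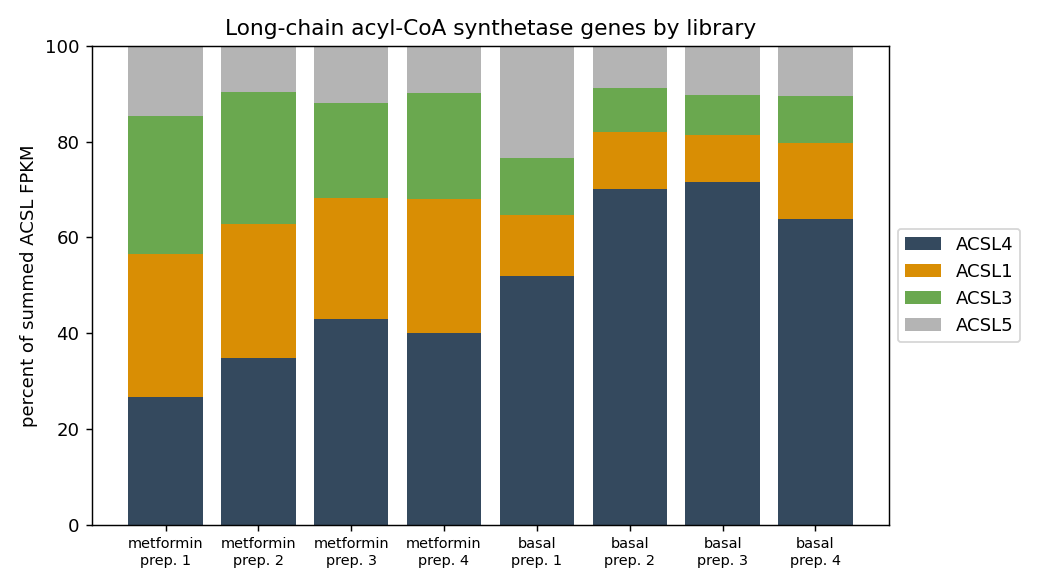
Share of each long-chain acyl-CoA synthetase gene in the summed FPKM of the 4 genes, in percent, for each metformin and basal library. The dark ACSL4 segment spans 26.7% to 42.9% with metformin and 51.9% to 71.6% in basal libraries.

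FABP1 and SLC27A2 had the widest spread between basal libraries of the 40 genes. SLC27A2, a very long-chain acyl-CoA synthetase that also acts in uptake, had 58.4, 53.3, 15.3 and 17.3 FPKM with metformin, against 22.4, 30.6, 4.69 and 8.67 FPKM in basal cells. It was higher with metformin in each preparation, but preparations 1 and 2 were higher than 3 and 4 in both groups and the groups overlapped. Its log2 change was 1.14 ± 0.15 (SE, adjusted p = 0.00203), the highest of the 40 genes, and the adjusted p was 0.237 without the pairing. FABP1, the liver fatty acid binding protein, had 68.6, 330.3, 27.6 and 45.5 FPKM with metformin, against 124, 168, 20.8 and 53.5 FPKM in basal cells. It was higher with metformin in preparations 2 and 3 and lower in 1 and 4, and its log2 change was 0.07 (95% interval -0.57 to 0.72, adjusted p = 0.845). For SLC27A4, another fatty acid transport protein, the change was -0.02 (95% interval -0.39 to 0.34, adjusted p = 0.91).

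In the carnitine shuttle the steps that commit long-chain fatty acids to mitochondria fell. CPT1A, the liver form of the malonyl-CoA-sensitive outer membrane enzyme, had 8.22, 9.29, 26.02 and 19.3 FPKM with metformin, against 34.4, 28.7, 71.7 and 65.1 FPKM in basal cells. Preparations 3 and 4 were higher than 1 and 2 in both groups, yet no metformin value reached any basal value. The log2 change was -1.65 ± 0.12 (SE, adjusted p = 0.000683), and the ratio of group means was 3.18-fold lower with metformin. CPT2, which releases the acyl group inside mitochondria, had 20.9, 23.7, 29.7 and 18.4 FPKM with metformin, against 52.4, 54.04, 48.5 and 50.1 FPKM in basal cells. The basal values lay within a narrow range and all metformin values below it, with a log2 change of -1.13 ± 0.14 (SE, adjusted p = 0.00175).

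The other genes of the shuttle had smaller differences. CPT1B, the muscle form of CPT1, was low, at 1.38, 1.38, 1.41 and 0.922 FPKM with metformin, against 2.13, 2.81, 1.48 and 1.66 FPKM in basal cells, and its log2 change was -0.40 (95% interval -0.75 to -0.04, adjusted p = 0.0704). It made up 14.3, 12.96, 5.15 and 4.56% of the summed FPKM of CPT1A and CPT1B with metformin, against 5.85, 8.92, 2.02 and 2.49% in basal cells, a higher share with metformin in each preparation. For CRAT, which handles short-chain acyl groups, the log2 change was -0.28 (95% interval -0.54 to -0.01, adjusted p = 0.0833). CPT1B and CRAT were lower with metformin in all 4 preparations, and their groups did not overlap, without passing the test. For CRAT the test was passed with quantile normalization (adjusted p = 0.0229) and with libraries rescaled by the median of ratios (0.0478). For CPT1B it was passed without the variance trend (0.0494) and without preparation 3 (0.0418). The summed FPKM of the 4 genes was 98.1, 102, 126 and 92.5 with metformin, against 172, 163, 195 and 195 in basal cells, lower in each preparation.

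Within mitochondria 3 of the 4 acyl-CoA dehydrogenases tested, enzymes of the opening step of each cycle, fell. ACADVL, the very long-chain enzyme of the inner membrane, had 46.5, 48.3, 46.9 and 47.1 FPKM with metformin, against 89.5, 112, 91.98 and 115 FPKM in basal cells. The metformin values were nearly the same in the 4 preparations and less than the lowest basal value, and the log2 change was -1.09 ± 0.11 (SE, adjusted p = 0.00108). ACADS, the short-chain enzyme, had 33.8, 39.01, 24.7 and 19.5 FPKM with metformin, against 62.9, 80.7, 43.4 and 53.4 FPKM in basal cells. Its groups did not overlap and its log2 change was -1.03 ± 0.13 (SE, adjusted p = 0.00186). ACADL, the long-chain enzyme, had 11.01, 22.3, 20.1 and 12.6 FPKM with metformin, against 23.02, 30.4, 26.2 and 20.5 FPKM in basal cells, with overlap between the groups and a log2 change of -0.62 ± 0.14 (SE, adjusted p = 0.0112). For ACAD9, which is known mainly as an assembly factor of respiratory complex I, the change was -0.21 (95% interval -0.46 to 0.04, adjusted p = 0.145).

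Of the genes of the later steps of the mitochondrial cycle, ECHS1, HADHA and HADHB fell and HADH did not pass the test as fitted. ECHS1, the short-chain enoyl-CoA hydratase, had 77.5, 80.9, 69.2 and 62.1 FPKM with metformin, against 147, 154, 97.9 and 117 FPKM in basal cells, without overlap. HADHA and HADHB encode the 2 kinds of subunit of the trifunctional protein, which carries out the last 3 reactions on long chains. HADHA had 90.1, 93.7, 99.1 and 70.02 FPKM with metformin, against 117, 109, 147 and 124 FPKM in basal cells, and HADHB had 116, 134, 145 and 99.9 FPKM with metformin, against 140.1, 166, 228 and 192 FPKM in basal cells. The groups did not overlap for HADHA and overlapped for HADHB. The log2 changes were -0.81 ± 0.12 (SE, adjusted p = 0.00276) for ECHS1, -0.49 ± 0.13 (SE, adjusted p = 0.0192) for HADHA and -0.54 ± 0.14 (SE, adjusted p = 0.0202) for HADHB. The adjusted p of HADHA was 0.0533 without preparation 1, 0.0590 without preparation 3 and 0.0689 without preparation 4, and that of HADHB was 0.0647 without preparation 3 and 0.0683 without preparation 4. The ratio of HADHA to HADHB in FPKM was 0.775, 0.699, 0.685 and 0.701 with metformin, against 0.837, 0.660, 0.644 and 0.645 in basal cells, and these ranges overlapped. Of the 41 genes with a row, 40 were found in the RefSeq gene table of assembly ARS-UI_Ramb_v3.0, and HADHA and HADHB were the only pair of these 40 that neighbour each other there among protein-coding genes. For HADH, the short-chain hydroxyacyl-CoA dehydrogenase, the change was -0.18 (95% interval -0.41 to 0.05, adjusted p = 0.172), and the test was passed with quantile normalization (adjusted p = 0.0456).

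Of the auxiliary enzymes, ECI1, which shifts the double bonds of unsaturated fatty acids, had 6.40, 7.27, 7.99 and 5.22 FPKM with metformin, against 12.3, 13.1, 11.5 and 12.5 FPKM in basal cells. Its groups did not overlap, and its log2 change was -0.80 ± 0.13 (SE, adjusted p = 0.00436). For DECR1, the dienoyl-CoA reductase, the change was -0.26 (95% interval -0.53 to 0.00, adjusted p = 0.0979). ETFDH, which passes electrons from the dehydrogenases to ubiquinone, had 15.8, 16.4, 11.5 and 9.13 FPKM with metformin, against 17.1, 20.8, 15.3 and 14.7 FPKM in basal cells, with overlap and a log2 change of -0.36 ± 0.12 (SE, adjusted p = 0.0465). That call was close to the threshold and ended whichever preparation was left out (adjusted p from 0.0642 to 0.156). All 11 mitochondrial genes tested were lower with metformin in all 4 preparations, and 8 of them passed the test. Without preparation 3, and likewise without preparation 4, 5 of the 11 passed. Without the pairing 4 passed, beside 1246 lower and 1272 higher of all 13141 genes tested. The summed FPKM of the 12 genes with a row, with ACAA2 counted at its listed 0, was 495, 541, 509.5 and 398 with metformin, against 721, 801, 753 and 737 in basal cells.

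The peroxisomal enzymes included the largest fall of the 40 genes. ACOX2, the oxidase for branched chains and bile acid intermediates, had 5.83, 17.6, 10.7 and 4.38 FPKM with metformin, against 53.8, 96.4, 28.7 and 43.9 FPKM in basal cells. Each metformin value was below the lowest basal value, preparations 1 and 4 had the lowest metformin values, and the log2 change was -2.45 ± 0.28 (SE, adjusted p = 0.00141). ACOX3, another branched-chain oxidase, had 9.64, 16.3, 11.5 and 11.6 FPKM with metformin, against 17.2, 23.6, 14.7 and 15.8 FPKM in basal cells, with overlap. Its log2 change was -0.51 ± 0.12 (SE, adjusted p = 0.0138), and without preparation 1 the adjusted p was 0.0701.

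The 2 multifunctional enzymes of the peroxisome, which hydrate and dehydrogenate, both fell. EHHADH, the L-bifunctional enzyme, had 31.3, 26.4, 14.9 and 10.8 FPKM with metformin, against 74.6, 81.02, 37.3 and 35.02 FPKM in basal cells. HSD17B4, the D-bifunctional enzyme, had 23.7, 28.2, 23.9 and 18.2 FPKM with metformin, against 47.1, 52.4, 36.3 and 35.5 FPKM in basal cells. In neither gene did the groups overlap, and basal EHHADH was higher in preparations 1 and 2 than in 3 and 4. The log2 changes were -1.42 ± 0.12 (SE, adjusted p = 0.000701) for EHHADH and -0.84 ± 0.11 (SE, adjusted p = 0.00213) for HSD17B4. Thiolysis is carried out by ACAA1 and, for branched chains, by SCP2, whose gene also encodes a sterol carrier. SCP2 had 29.9, 46.8, 28.9 and 25.5 FPKM with metformin, against 84.99, 119, 52.5 and 62.9 FPKM in basal cells, and ACAA1 had 57.5, 63.1, 45.1 and 44.5 FPKM with metformin, against 79.5, 86.4, 53.04 and 57.5 FPKM in basal cells. SCP2 did not overlap between groups and fell by 1.23 on the log2 scale (adjusted p = 0.00123), and ACAA1 overlapped and fell by 0.38 (adjusted p = 0.0232). ACAA1 lost its call on leaving out preparation 1 (adjusted p = 0.113), preparation 2 (0.0612) or preparation 4 (0.0650).

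The enzymes for unsaturated and shortened chains, DECR2, ECI2 and CROT, fell as well. DECR2, the peroxisomal dienoyl-CoA reductase, had 25.6, 56.9, 19.4 and 18.8 FPKM with metformin, against 79.3, 172, 43.3 and 57.5 FPKM in basal cells. Preparation 2 was highest in both groups, and its metformin value lay above the lowest basal value. The log2 change was -1.46 ± 0.12 (SE, adjusted p = 0.000715), with adjusted p = 0.0614 without the pairing. ECI2, an enoyl-CoA isomerase of peroxisomes and mitochondria, had 38.3, 101, 71.4 and 67.8 FPKM with metformin, against 84.7, 193, 92.3 and 95.9 FPKM in basal cells, and CROT, which puts shortened acyl groups on carnitine for export to mitochondria, had 7.49, 13.3, 8.95 and 6.62 FPKM with metformin, against 15.9, 26.6, 10.2 and 12.1 FPKM in basal cells. Both overlapped between groups, and preparation 2 was highest in each group. The log2 changes were -0.73 ± 0.15 (SE, adjusted p = 0.00907) for ECI2 and -0.72 ± 0.16 (SE, adjusted p = 0.0117) for CROT, whose adjusted p was 0.0501 without preparation 2. For ACAD11, an acyl-CoA dehydrogenase found in peroxisomes, the change was -0.05 (95% interval -0.36 to 0.26, adjusted p = 0.772), higher in 2 preparations and lower in 2. The summed FPKM of the 10 enzymes was 263, 385, 242 and 225 with metformin, against 570.5, 868, 378 and 429 in basal cells, 2.01-fold lower by group means. Of the 14 peroxisomal genes 10 passed the test. Without the pairing 4 passed, beside 1246 lower and 1272 higher of all 13141 genes tested.

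Of the 4 peroxins among the 40 genes, PEX5 passed the test and PEX14, PEX19 and PEX11A did not. PEX5, the receptor that brings most of these enzymes into the peroxisome, had 124, 187, 50.3 and 83.8 FPKM with metformin, against 58.2, 81.5, 40.4 and 55.8 FPKM in basal cells. It was higher with metformin in each preparation, by most in preparations 1 and 2, and the groups overlapped. The log2 change was 0.79 ± 0.17 (SE, adjusted p = 0.00966), and the adjusted p was 0.181 without the pairing. PEX14, the docking protein for PEX5, had a change of 0.06 (95% interval -0.22 to 0.33, adjusted p = 0.712). For PEX19, which inserts membrane proteins, the change was -0.14 (95% interval -0.46 to 0.17, adjusted p = 0.407), and for PEX11A, which acts in peroxisome division, it was 0.06 (95% interval -0.22 to 0.35, adjusted p = 0.695). Of 12 other peroxins tested, 6 fell and 0 rose. Over all genes tested 43.9% changed, 24.1% lower and 19.8% higher, so the share that changed was near that of all genes.

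**Figure D4:**
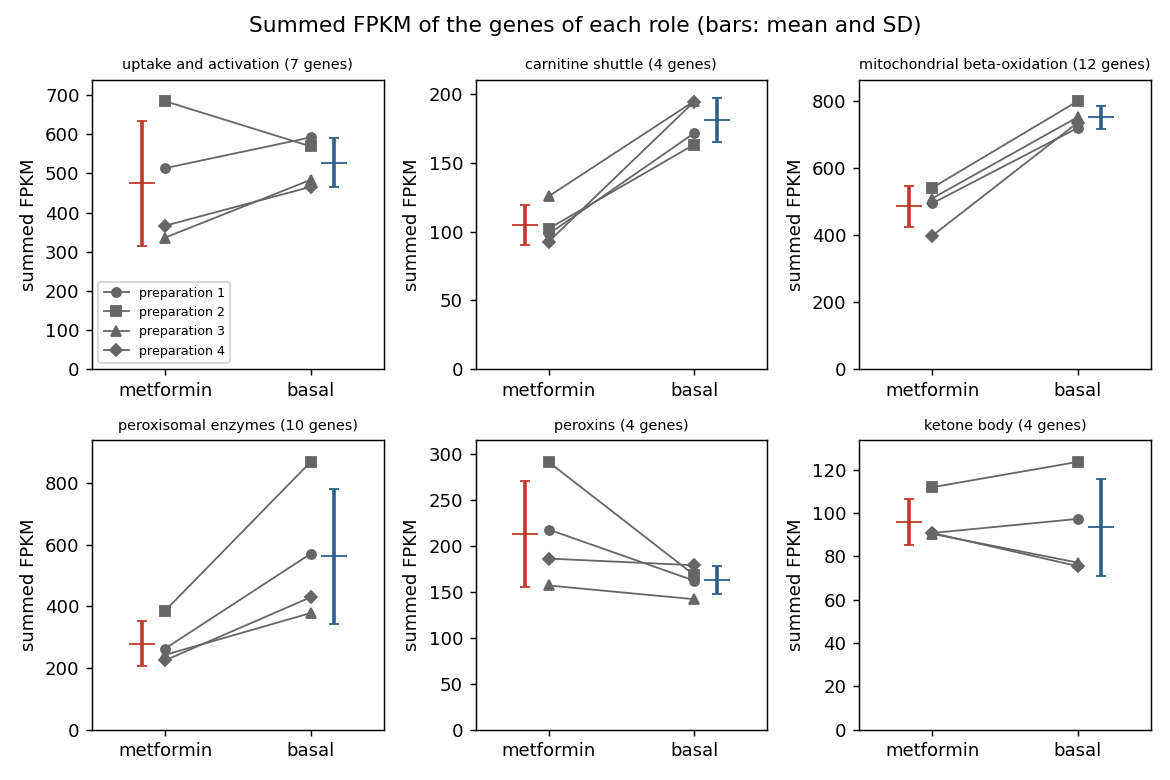
Summed FPKM of the genes of each role in metformin (left) and basal (right) libraries, with a line for each preparation and bars for the mean and SD of a group (n = 4). The lines run upward from metformin to basal in all 4 preparations for the carnitine shuttle, mitochondrial beta-oxidation and the peroxisomal enzymes, and downward for the peroxins. The sum of the peroxins includes PEX5, the only 1 of them to pass the test. PEX14, PEX19 and PEX11A each changed direction between preparations.

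Among the ketone body genes BDH1 alone passed the test. BDH1, the mitochondrial enzyme that interconverts acetoacetate and 3-hydroxybutyrate, had 12.6, 13.4, 12.7 and 12.5 FPKM with metformin, against 9.26, 5.21, 5.32 and 5.20 FPKM in basal cells. All metformin values lay above all basal values, basal preparation 1 was above the other basal libraries, and the log2 change was 0.97 ± 0.16 (SE, adjusted p = 0.00414). For ACAT1, the mitochondrial acetoacetyl-CoA thiolase, the change was -0.05 (95% interval -0.36 to 0.25, adjusted p = 0.765). For BDH2, a cytosolic dehydrogenase related to BDH1, it was -0.25 (95% interval -0.52 to 0.01, adjusted p = 0.104), and for OXCT1, which activates acetoacetate for use outside the liver, it was 0.22 (95% interval -0.06 to 0.49, adjusted p = 0.166). BDH2 was lower and OXCT1 higher with metformin in all 4 preparations, without passing the test. The share of these 4 genes that changed, 25.0%, was below the 43.9% of all genes tested. Their summed FPKM was 90.8, 112, 90.5 and 90.8 with metformin, against 97.3, 124, 77.2 and 75.5 in basal cells, with no common direction over the preparations.

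Other genes of ketone body synthesis and transport were also measured. Of 6 such genes tested, 2 rose and 1 fell, a share near that of all genes, with a median log2 change of 0.06. SLC16A6, a transporter known in zebrafish to export ketone bodies from hepatocytes, averaged 6.45 ± 3.42 FPKM with metformin and 2.13 ± 0.861 FPKM in basal cells (SD, n = 4 each, log2 change 1.17 ± 0.23 (SE, adjusted p = 0.00814)). Its adjusted p was 0.0511 without the pairing. AACS, which activates acetoacetate for lipid synthesis in the cytosol, averaged 37.1 ± 11.9 FPKM with metformin and 20.3 ± 2.58 FPKM in basal cells (log2 change 0.79 ± 0.17 (SE, adjusted p = 0.00989)). The monocarboxylate transporter SLC16A7 fell, averaging 12.01 ± 3.41 FPKM with metformin and 20.04 ± 3.67 FPKM in basal cells (log2 change -0.71 ± 0.17 (SE, adjusted p = 0.0149)) and lost its call on leaving out preparation 1 or 4 (adjusted p = 0.0577 and 0.0573).

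A list of genes of carnitine supply, other mitochondrial acyl-CoA oxidation and related steps had 15 of 27 tested fall and 1 rise. This was 59.3%, against 43.9% of all genes tested, with a median log2 change of -0.57. The list also held genes that are not enzymes of mitochondrial oxidation, among them ACACA, ACACB, CPT1C and NUDT7. Of these ACACB, CPT1C and NUDT7 were among the 15 that fell. SLC25A20, the carrier that exchanges acylcarnitine across the inner membrane, averaged 10.4 ± 2.34 FPKM with metformin and 21.1 ± 5.86 FPKM in basal cells (SD, n = 4 each), a log2 change of -0.95 ± 0.12 (SE, adjusted p = 0.00175). SLC22A5, the carnitine transporter of the plasma membrane, averaged 1.45 ± 0.2503 FPKM with metformin and 3.74 ± 1.09 FPKM in basal cells (log2 change -0.92 ± 0.15 (SE, adjusted p = 0.00388)). CPT1A, CPT2, SLC25A20 and SLC22A5 therefore all fell. ACSM3, a medium-chain acyl-CoA synthetase, averaged 31.1 ± 29.4 FPKM with metformin and 129 ± 106 FPKM in basal cells (log2 change -2.07 ± 0.11 (SE, adjusted p = 0.000335)), with SD near the means in both groups. ACSF2, another acyl-CoA synthetase, and PCCA, a subunit of propionyl-CoA carboxylase, had log2 changes of -0.91 ± 0.10 (SE, adjusted p = 0.00135) and -0.95 ± 0.11 (SE, adjusted p = 0.00135). Of the acetyl-CoA carboxylases, which make the malonyl-CoA that inhibits CPT1, ACACB averaged 0.694 ± 0.347 FPKM with metformin and 1.84 ± 1.23 FPKM in basal cells (log2 change -0.68 ± 0.17 (SE, adjusted p = 0.0171)). This call ended without preparation 1 (adjusted p = 0.0616) or 2 (0.0631) and with quantile normalization (0.079). For ACACA the change was 0.31 (95% interval -0.01 to 0.63, adjusted p = 0.0992). Without preparation 1, 9 of the 27 fell and 1 rose, and with a mean FPKM of at least 5 as the filter 9 fell and 1 rose among fewer genes tested. Without the pairing 6 of the 27 fell and 0 rose, beside 1246 and 1272 of all 13141 genes tested. The calls of ACSM3 (adjusted p = 0.0803), ACSF2 (0.0592) and ACACB (0.14) then ended.

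Of 36 other peroxisome genes tested, 22 fell and 2 rose, or 66.7% against 43.9% of all genes tested, with a median log2 change of -0.56. CAT, catalase, which breaks down the hydrogen peroxide made by the oxidases, averaged 91.2 ± 16.4 FPKM with metformin and 242 ± 66.6 FPKM in basal cells (log2 change -1.37 ± 0.13 (SE, adjusted p = 0.000976)). HACL1 and PIPOX, enzymes of alpha-oxidation and of pipecolic acid oxidation, averaged 12.2 ± 4.29 FPKM with metformin and 44.1 ± 29.3 FPKM in basal cells, and 6.67 ± 4.05 FPKM with metformin and 23.9 ± 20.98 FPKM in basal cells, with log2 changes of -1.59 ± 0.21 (SE, adjusted p = 0.00213) and -1.47 ± 0.18 (SE, adjusted p = 0.00167). Without the pairing 12 of the 36 fell and 2 rose, beside 1246 and 1272 of all 13141 genes tested. The call of PIPOX (adjusted p = 0.127) then ended.

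**Figure D5:**
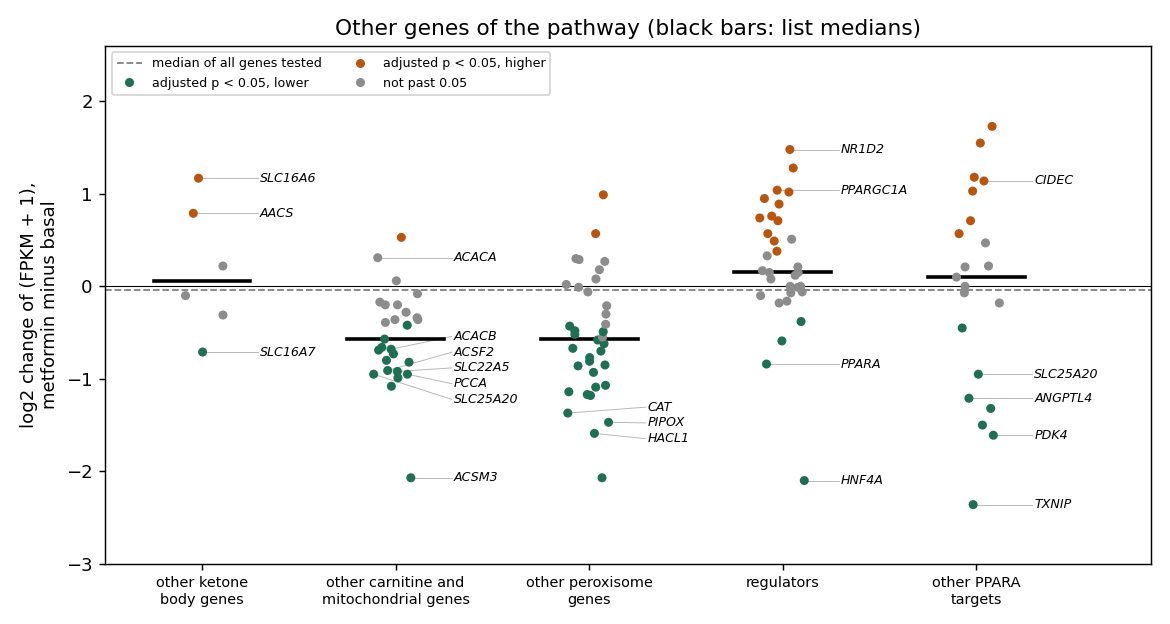
Log2 change of (FPKM + 1), metformin minus basal, of genes of the pathway outside the 45, by list, with black bars at list medians and a dashed line at the median of all genes tested. The medians of the carnitine and the peroxisome lists are -0.57 and -0.56, and those of the other 3 lists lie between 0.06 and 0.16. Some genes stand in 2 lists and are counted in both, among them SLC25A20, LPIN1 and CREB3L3.

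Of 32 regulators of these genes tested, 12 rose and 4 fell, with a median log2 change of 0.16. These were 50.0% of the list, near the 43.9% of all genes tested, so the count itself is no result about regulators. PPARA, the nuclear receptor that drives fatty acid oxidation genes in liver, averaged 11.4 ± 1.59 FPKM with metformin and 21.5 ± 5.16 FPKM in basal cells (SD, n = 4 each), with a log2 change of -0.84 ± 0.13 (SE, adjusted p = 0.00307). HNF4A, a nuclear receptor of hepatocyte identity that also acts on oxidation genes, averaged 11.7 ± 3.77 FPKM with metformin and 54.96 ± 21.5 FPKM in basal cells (log2 change -2.10 ± 0.17 (SE, adjusted p = 0.000701)). PPARGC1A, a coactivator of PPARA and of mitochondrial genes, rose and averaged 15.7 ± 6.29 FPKM with metformin and 6.84 ± 2.02 FPKM in basal cells (log2 change 1.04 ± 0.14 (SE, adjusted p = 0.00207)). The clock repressor NR1D2 rose too (log2 change 1.48 ± 0.17 (SE, adjusted p = 0.00138)). Without the pairing 5 of the 32 regulators rose and 2 fell, beside 1272 and 1246 of all 13141 genes tested.

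Targets of PPARA outside the 45 were divided, with 7 of 21 tested rising and 7 falling, or 66.7% against 43.9% of all genes tested. PDK4, the kinase that shuts off pyruvate dehydrogenase, averaged 9.35 ± 6.51 FPKM with metformin and 28.9 ± 15.04 FPKM in basal cells (log2 change -1.61 ± 0.19 (SE, adjusted p = 0.00158)), and ANGPTL4, a secreted inhibitor of lipoprotein lipase, averaged 58.4 ± 30.99 FPKM with metformin and 136 ± 71.8 FPKM in basal cells (log2 change -1.21 ± 0.17 (SE, adjusted p = 0.00242)). TXNIP, an arrestin-like protein that limits glucose uptake, had a log2 change of -2.36 ± 0.15 (SE, adjusted p = 0.000499). In contrast the lipid droplet gene CIDEC rose, averaging 8.69 ± 5.97 FPKM with metformin and 3.11 ± 1.98 FPKM in basal cells (log2 change 1.14 ± 0.14 (SE, adjusted p = 0.00176)). Without the pairing 2 of the 21 rose and 2 fell, beside 1272 and 1246 of all 13141 genes tested. The calls of PDK4 (adjusted p = 0.0609), ANGPTL4 (0.123) and CIDEC (0.163) then ended.

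The order of levels among the genes changed between the groups. With metformin the highest mean FPKM values were those of HADHB, 124 ± 19.8, FABP1, 118 ± 142, PEX5, 111 ± 58.9, and ACSL4, 111 ± 10.3 (SD, n = 4). These 4 differed by less than their spread. In basal cells the highest were ACSL4, 264 ± 41.2, HADHB, 181 ± 37.5, ECHS1, 129 ± 26.5, and HADHA, 124 ± 16.1. ECHS1 and HADHA differed by less than their spread. CPT1B had the lowest level of the 40 tested genes in both groups. In the authors' deposited table, 28 of the 41 genes carry a q-value, and 19 of the 28 are under 0.05, 15 with a lower and 4 with a higher metformin mean. Of the genes that passed the test here, ACADL, ACSL5, CROT, ECI2, HADHA, HADHB and PEX5 have q-values from 0.0514 to 0.0747. ETFDH has none. HADH, which did not pass here, has a q-value of 0.0366.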

How the data were processed

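Polyadenylated RNA of 8 libraries of fetal sheep hepatocytes was sequenced by the authors, 4 with metformin and 4 basal, paired by preparation number. The deposited values are FPKM per gene and library, made with Cufflinks on Oar_v3.1 per the submitters' processing notes. The sources used here do not name the aligner, the annotation or the versions. The authors' deposited table also holds group means in FPKM, a signed fold change (a score), a p-value and a q-value, with a placeholder score where no q-value was given. Read depth is unknown, so no counting interval is given. FPKM is relative to each library's total. A placeholder in 4 FPKM cells (none in the 41 genes with a row) was treated as missing. The hepatoblast marker AHSG had no value in metformin preparation 1 and in basal preparations 1 and 2.

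A gene was tested where 4 or more libraries reached an FPKM of 1. The test was limma (version 3.58.1, R 4.3.3) applied to log2(FPKM + 1), 2-sided, with a term for each preparation (block) and with variances moderated along a trend on the mean. Benjamini-Hochberg adjustment ran over all 13141 genes, and adjusted p under 0.05 counted as changed. Log2 changes on this scale understate the change of low genes. The labels give each preparation 1 library in each group. Deviations from the group means correlated between the libraries of one preparation, with r from 0.489 to 0.585.

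The genes and lists were chosen with earlier results of these data known. Genes past the threshold with one sign in all 4 preparations, or with a mean FPKM of at least 100, are given with their 8 values. Of other pathway genes, up to 4 per list with the lowest p and a fixed set are named, and a few of these are not reported here. Alternatives were a pseudocount of 0.1, no filter, a mean FPKM of at least 5, no pairing, 2 rescalings of the libraries, no trend, and leaving out each preparation.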

Additional observations from a re-analysis of the deposited data

Results flagged for a closer look

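In 7 of 80 groups of 4 libraries (a gene in the metformin or the basal group), 1 library stood apart from the other 3, by a gap above Dixon's 95% critical value. Chance flags about 1 in 20 such groups. FABP1 was 330.3 FPKM in metformin preparation 2, against 68.6 in the nearest of the other metformin libraries. PEX14 was 50.1 FPKM in metformin preparation 1. In metformin preparation 4, CPT1B was 0.922 FPKM and CRAT was 53.9 FPKM, both the lowest of their group. BDH1 was 13.4 FPKM in metformin preparation 2, within a narrow group, and 9.26 FPKM in basal preparation 1, against 5.32 in the nearest of the other basal libraries. ECI2 was 192.8 FPKM in basal preparation 2, against 95.9 in the nearest.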

How the results depend on the processing

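Of the 40 genes tested, none changed its call with a pseudocount of 0.1, and 2 calls ended without the filter on low values. Leaving out the pairing (replicate block) ended 12 of the 26 calls: SLC27A2, ACSL5, ACADL, HADHA, HADHB, ETFDH, ACOX3, ACAA1, ECI2, DECR2, CROT and PEX5. The number of changed genes without it was 14 of 40, with 3 for uptake and activation, 4 for mitochondrial beta-oxidation and 4 for the peroxisomal genes. It was 6 of 27 for the carnitine list and 14 of 36 for the other peroxisome genes. For the regulators it was 7 of 32, for the PPARA targets 4 of 21 and for all genes 2518 of 13141. Leaving out each preparation gave 5 to 7 changed mitochondrial genes, 10 to 17 of the carnitine list and 3674 to 5230 of all genes, and 19 of the 26 calls held in all 4 of these fits. With a mean FPKM of at least 5, 10 genes of the carnitine list passed, and the median log2 change of the carnitine shuttle was -1.13, since CPT1B was then not tested. Calls were gained by CRAT with quantile normalization and the median of ratios, by CPT1B without the trend and without preparation 3, and by HADH with quantile normalization. ETFDH lost its call with quantile normalization (adjusted p = 0.0591). Signs turned only in genes that did not pass the test. With quantile normalization the log2 change was 0.12 for SLC27A4 and -0.02 for PEX14. Over the fits without 1 preparation it ranged from -0.23 to 0.38 for FABP1, from -0.17 to 0.07 for SLC27A4, from -0.16 to 0.04 for ACAD11, from -0.02 to 0.13 for PEX11A, from -0.02 to 0.14 for PEX14 and from -0.14 to 0.05 for ACAT1. Read depth is unknown, so the precision of genes at low FPKM, such as CPT1B, cannot be given.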

Other observations

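The preparations differed from each other before any treatment was compared. Over the 40 tested genes the highest library of a group was, at the median, 1.62-fold the lowest with metformin and 1.63-fold the lowest in basal cells. This spread was above 2-fold for 12 genes with metformin and for 13 genes in basal cells. It was widest for FABP1, 11.9-fold with metformin and 8.11-fold in basal cells, followed in basal cells by SLC27A2, at 3.82-fold with metformin and 6.53-fold in basal cells, and DECR2, at 3.03-fold with metformin and 3.97-fold in basal cells. CPT2 was 1.62-fold with metformin and 1.11-fold in basal cells, and ACADVL was 1.04-fold with metformin and 1.28-fold in basal cells. For 10 of the 26 genes that changed with metformin, basal libraries differed from each other by more than the ratio of the group means.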
